A study of Homo sapiens with 12 samples.

Results

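The genes described here are 9 replacement histone genes, H2AX, H2AJ, H2AZ1, H2AZ2, MACROH2A1, MACROH2A2, H3-3A, H3-3B and H1-10. They were chosen by symbol from the 60651 genes of a table of RNA-sequencing counts. No measured value entered the rule, but earlier results of these data were known when the genes were chosen. The study treated cultured cholangiocarcinoma (bile duct cancer) cells with decitabine, a cytidine analogue that is built into DNA and traps DNA methyltransferases, with talazoparib, an inhibitor of poly(ADP-ribose) polymerase (PARP), or with both. EGI-1 cells, grown in DMEM, received vehicle (DMSO), 0.5 µM decitabine, 200 nM talazoparib or the combination of both. HUCCT1 cells, grown in RPMI1640, received vehicle or 1 µM decitabine. Both are established human lines labelled as wild type, all cells were harvested at 72 h, and each of the 6 groups holds 2 libraries. The line, the medium and the decitabine dose change together. A tag in the library names, whose meaning the labels do not give, also differs between the lines. The parts of these in a difference between the lines cannot be told apart. The labels do not say whether the 2 libraries of a group came from separate cultures, so p-values measure only the spread between these libraries, which may be technical. A T50 in the names of these talazoparib libraries differs from the labelled 200 nM.

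Most histone genes lie in clusters, are transcribed in S phase to package newly copied DNA, and end in a 3′ stem-loop in place of a poly(A) tail. Replacement histone genes lie outside those clusters, usually contain introns or a poly(A) signal, and supply chromatin throughout the cell cycle and in cells that no longer divide. H3.3 marks transcribed genes and telomeres, H2A.Z sits beside transcription start sites, macroH2A is abundant in silent chromatin and binds ADP-ribose through its macrodomain in 1 splice form, and H2AX is phosphorylated around DNA double-strand breaks.

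Total counts lay between 23139065 and 33181930 in the EGI-1 libraries and between 32519985 and 34965627 in the HUCCT1 libraries. The biliary epithelial markers were detected in every group, 7 of 7, while all 5 hepatocyte markers had 3 counts or fewer in every EGI-1 library. EGI-1 combination replicate 2 stood apart from the other EGI-1 libraries. The leukocyte genes PTPRC and CD3E had 381 and 148 counts in it, against at most 7 and 4 counts in the other 7 EGI-1 libraries. LYZ had 84 counts in that library and 19 to 39 in the others. The summed level of the 5 leukocyte markers was 20.4 CPM (counts scaled to library size) there, 1.96 CPM in combination replicate 1 and between 0.72 and 1.72 CPM in the other EGI-1 groups. In that library 68 genes with at least 50 counts exceeded every other EGI-1 library more than 4-fold, against 0 to 4 genes in each of the others. The part of these transcripts in the combination results was not tested, and the combination results against vehicle are given below with and without that library. The S phase markers moved with the combination too, from a summed 3020 to 3060 CPM with vehicle to 2500 to 2510 CPM. The endothelial markers went from between 19.7 and 21.2 to between 28.6 and 29.8 CPM and the fibroblast markers, of which 4 of 5 had 3 counts or fewer, from between 28.5 and 30.3 to between 42.7 and 49.5 CPM.

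Among the 9 genes, H2AX was the only one whose transcript held the histone 3′ stem-loop, searched as a perfect stem of 6 base pairs that opens with GG around a loop of 4 bases that opens with TTT, downstream of the stop codon. The same element was found in 12 of 13 canonical H3, 14 of 16 canonical H2A and 6 of 6 clustered H1 genes, and in 0.43% of 20020 protein-coding genes. It is shown for H2AX and for the clustered H3, H2A and H1 gene with the greatest fall under the combination, since these genes are compared below. Capitals mark the 16 bases of stem and loop in the GENCODE 44 transcripts, and coordinates are on GRCh38.
H2AX (chr11:119094893-119094918, minus strand): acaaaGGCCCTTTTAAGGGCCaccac
H3C12 (chr6:27890315-27890340, minus strand): ccaaaGGCTCTTTTCAGAGCCactta
H2AC16 (chr6:27865773-27865798, plus strand): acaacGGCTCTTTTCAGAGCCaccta
H1-3 (chr6:26234212-26234237, minus strand): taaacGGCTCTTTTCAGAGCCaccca
The 16 bases of the 3 clustered genes matched H2AX at 13 positions. In H2AX the element began 49 bases after the stop codon and 1024 bases lay beyond it before the transcript end, against 5 bases in each of the clustered genes. H2AX mRNA is known in a short form that ends at the stem-loop and a long polyadenylated form, and a count per gene does not separate them. H2AX, H2AJ and H1-10 have 1 exon, H3-3A and H3-3B have 4, both H2A.Z genes have 5 and both macroH2A genes have 9.

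The promoters are shown for the 5 genes that fell under the combination, as the 250 bases before the RefSeq transcription start (GRCh38.p14). Capitals mark CCAAT on either strand (ATTGG on the strand shown) and TATAAA.
H2AX (chr11:119095466-119095715, minus strand): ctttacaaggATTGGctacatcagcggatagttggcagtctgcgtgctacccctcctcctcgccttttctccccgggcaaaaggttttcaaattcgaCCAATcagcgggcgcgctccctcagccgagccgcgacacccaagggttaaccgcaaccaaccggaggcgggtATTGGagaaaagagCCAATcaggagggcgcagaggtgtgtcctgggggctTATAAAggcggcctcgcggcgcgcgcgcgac
H2AZ2 (chr7:44848088-44848337, minus strand): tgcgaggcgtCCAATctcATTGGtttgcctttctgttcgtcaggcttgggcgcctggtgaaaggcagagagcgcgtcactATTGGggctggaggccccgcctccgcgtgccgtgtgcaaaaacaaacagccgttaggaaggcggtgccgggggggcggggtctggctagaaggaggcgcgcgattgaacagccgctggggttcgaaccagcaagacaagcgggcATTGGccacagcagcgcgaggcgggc
H2AJ (chr12:14774155-14774404, plus strand): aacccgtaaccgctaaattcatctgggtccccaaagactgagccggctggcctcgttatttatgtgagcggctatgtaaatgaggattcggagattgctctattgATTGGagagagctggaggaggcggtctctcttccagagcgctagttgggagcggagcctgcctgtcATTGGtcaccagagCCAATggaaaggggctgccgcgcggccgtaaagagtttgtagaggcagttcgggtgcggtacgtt
H1-10 (chr3:129316287-129316536, minus strand): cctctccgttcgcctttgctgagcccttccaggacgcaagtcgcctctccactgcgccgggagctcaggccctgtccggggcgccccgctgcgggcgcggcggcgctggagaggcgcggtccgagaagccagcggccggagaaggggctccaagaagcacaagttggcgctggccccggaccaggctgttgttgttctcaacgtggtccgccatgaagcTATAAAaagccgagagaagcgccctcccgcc
MACROH2A2 (chr10:70052596-70052845, plus strand): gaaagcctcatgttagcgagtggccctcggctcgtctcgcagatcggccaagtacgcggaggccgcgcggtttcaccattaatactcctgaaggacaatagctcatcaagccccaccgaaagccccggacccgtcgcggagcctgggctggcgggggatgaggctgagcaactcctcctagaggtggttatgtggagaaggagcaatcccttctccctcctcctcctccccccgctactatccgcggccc
All 9 genes matched the RefSeq promoter table, with 13 starts because H3-3A has 4 and MACROH2A1 has 2. CCAAT was present at 1 or more starts of 7 of the 9 genes and in 32.0% of 35116 promoters of this length. H1-10 and MACROH2A2 were the 2 genes without it, and H2AX, H2AZ2 and H3-3B each held 4 copies. TATAAA was present in 4 of the 9 genes (H2AX, H2AZ1, H3-3B and H1-10) and in 10.7% of all promoters. The E2F words TTTGGCGC, TTTGCCGC, TTTCGCGC and TTTCCCGC were present in 0 of the 9 genes and in 2.79% of all promoters. The cell cycle words TTTGAA and TTCGAA were found in 2 genes and 14.3% of all promoters, and the octamer ATTTGCAT in 1 gene and 1.63%.

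In EGI-1 the combination lowered the transcripts of 5 of the 9 genes and raised none. H2AX, H2AJ, H2AZ2, MACROH2A2 and H1-10 fell, by between 0.35 and 0.91 on the log2 scale, while H2AZ1, H3-3A, H3-3B and MACROH2A1 did not pass the test. Among all 22406 genes tested, 7.61% fell by the same rule, which calls a gene where the Benjamini-Hochberg adjusted p of edgeR's quasi-likelihood test is under 0.05. All 9 log2 fold changes were negative, with a median of -0.35 against -0.0248 over all genes tested. In 8 of the 9 genes, all but H2AZ1, both combination libraries lay below both vehicle libraries, which held for 30.7% of all genes tested. Without combination replicate 2, 3 genes passed the test, H2AX (-0.35, adjusted p = 0.0162), H2AZ2 (-0.42, adjusted p = 0.002) and MACROH2A2 (-0.45, adjusted p = 0.00488). Without vehicle replicate 1 the same 3 genes passed.

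Single agents did less. Talazoparib lowered 1 of the 9 genes, H2AZ2, beside 1.29% of all genes tested. Decitabine at 0.5 µM in EGI-1 gave 0 calls among the 9 genes and 0 by DESeq2. Among all genes 0.544% were called in either direction. At an unadjusted p under 0.05 were 0 of the 9 genes, beside 2048 of all 22406 genes tested. Against decitabine alone the combination lowered 3 genes, H2AX, H2AZ2 and MACROH2A2, beside 3.26% of all genes. Against talazoparib alone edgeR called 0 of the 9 genes and DESeq2 0, beside 1.92% of all genes called in either direction. At an unadjusted p under 0.05 were 3 genes (H2AX, MACROH2A2 and H2AJ), beside 2977 of all genes tested. Whether the log2 effect of both agents together differed from the 2 single effects added up was also tested. Of the 9 genes 0 were called by edgeR and 0 by DESeq2, beside 0.161% of all genes called. At an unadjusted p under 0.05 were 0 of the 9 genes, beside 757 of all genes tested. These comparisons share libraries and are therefore not independent of each other.

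**Figure D1:**
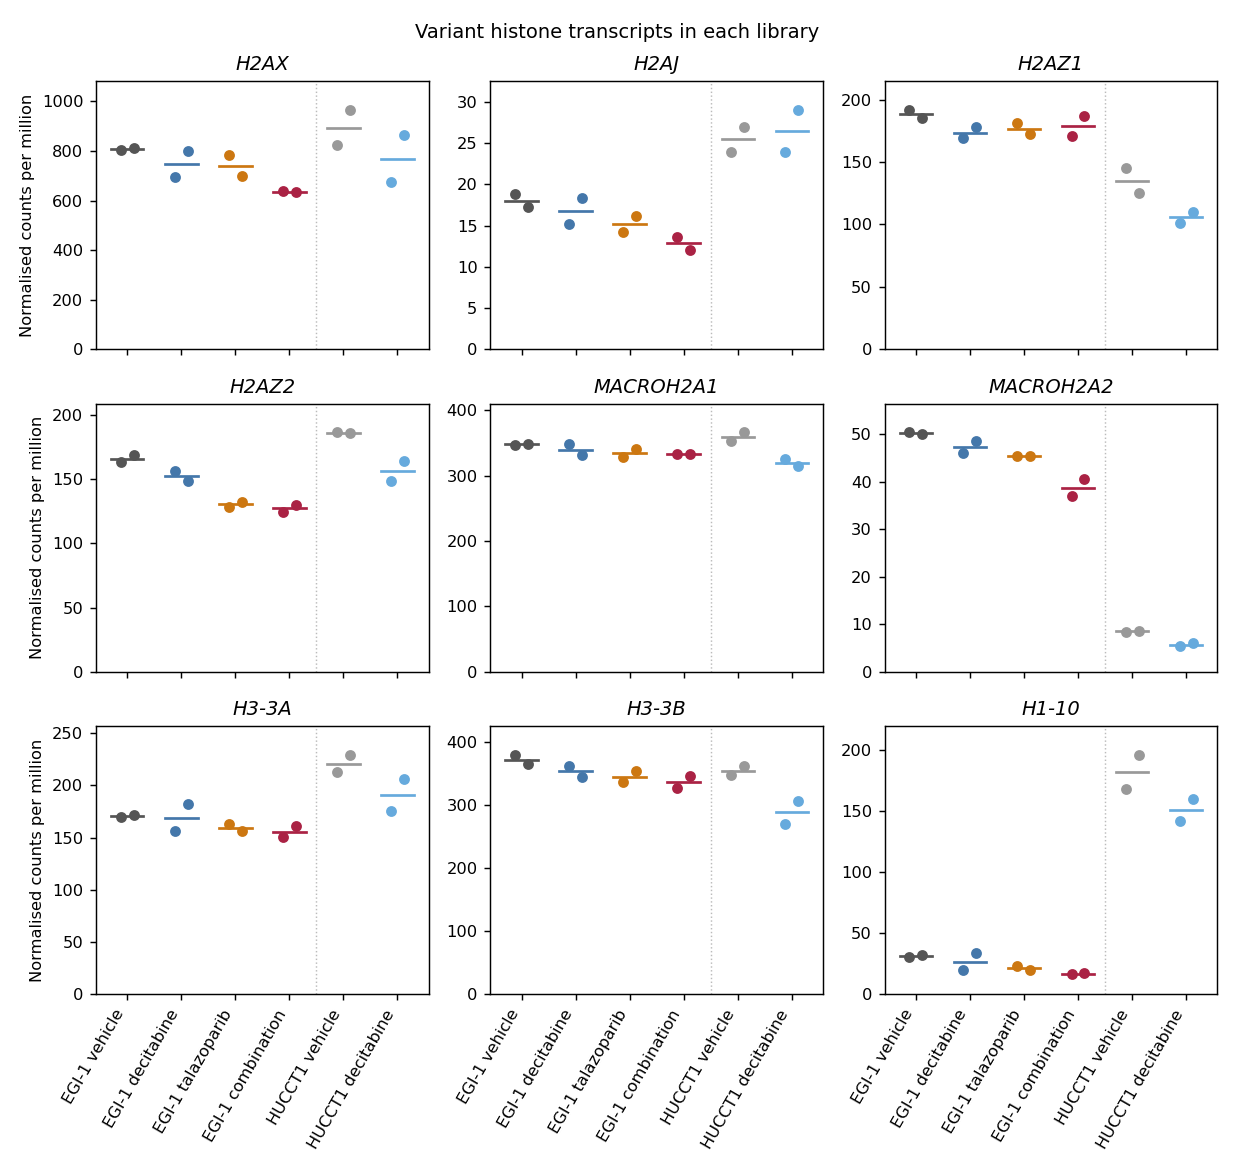
Normalised CPM (y axis, from 0) of the 9 variant histone genes in each library; points are libraries, horizontal lines are means of 2, and the dotted line separates EGI-1 from HUCCT1. H2AX, H2AJ, MACROH2A2 and H1-10 have both combination libraries below the 6 other EGI-1 libraries, and MACROH2A2 and H1-10 differ most between the lines. The share of all genes with both combination libraries lowest in EGI-1 was not counted.

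H2AX (ENSG00000188486.3, chr11:119093874-119095465, minus strand) encodes the H2A variant that carries the phosphorylation site used to mark DNA double-strand breaks. Levels are given as CPM after TMM scaling over all 12 libraries. In EGI-1 they were 804 and 814 CPM with vehicle, 696 and 799 with decitabine, 783 and 698 with talazoparib, and 639 and 633 with the combination. Both combination libraries were below every other EGI-1 library, and the decitabine and talazoparib libraries overlapped with each other. The combination differed from vehicle by a log2 fold change of -0.35 (SE 0.065, adjusted p = 9.0e-04), and the call held when any 1 of the 8 libraries was left out. Against decitabine the difference was -0.25 (SE 0.065, adjusted p = 0.0258). That call was lost without either vehicle library, either combination library or decitabine replicate 2, with adjusted p between 0.074 and 0.159. Without combination replicate 2 the value was -0.24 (adjusted p = 0.154), and without decitabine replicate 2 it was -0.14 (adjusted p = 0.159). In HUCCT1 the 2 vehicle libraries had 822 and 966 CPM and the decitabine libraries 674 and 862 CPM, so that the groups overlapped, and the change was -0.23 (SE 0.12, adjusted p = 0.138). It passed the test without vehicle replicate 1 (-0.35, adjusted p = 0.0495) or without decitabine replicate 2 (-0.41, adjusted p = 0.0395), and shrank to -0.067 (adjusted p = 0.8) without decitabine replicate 1 and to -0.129 without vehicle replicate 2.

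H2AJ (ENSG00000246705.4, chr12:14774405-14778002, plus strand) encodes an H2A variant close to canonical H2A that is known to accumulate in senescent cells with persistent DNA damage. It was the least counted of the 9 genes in EGI-1, with 333 to 573 counts per library. Vehicle libraries had 18.8 and 17.2 CPM, decitabine 15.2 and 18.3, talazoparib 14.2 and 16.1, and the combination 13.6 and 12.1. The combination libraries were again below all others, by a log2 fold change of -0.50 from vehicle (SE 0.12, adjusted p = 0.00645). The call was lost without combination replicate 2 (-0.41, adjusted p = 0.092) or without vehicle replicate 1 (-0.44, adjusted p = 0.0982). Against decitabine the change was -0.40 (SE 0.12, adjusted p = 0.0507), and it passed without decitabine replicate 1 (-0.53, adjusted p = 0.00821). H2AJ was the only one of the 9 genes with a positive value in HUCCT1, where vehicle libraries had 23.9 and 26.9 CPM and decitabine libraries 23.9 and 29 CPM. The groups overlapped and the change was 0.045 (SE 0.13, adjusted p = 0.827), with a negative sign of -0.046 without vehicle replicate 1 and -0.098 without decitabine replicate 2.

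H2AZ1 and H2AZ2 encode the H2A.Z proteins, whose coding sequences were 80.4% identical and differed in 3 of 128 codons by the encoded residue. H2AZ1 (ENSG00000164032.12, chr4:99948086-99950355, minus strand) had 192 and 185 CPM with vehicle, 169 and 178 with decitabine, 181 and 172 with talazoparib, and 170 and 187 with the combination. All 4 groups overlapped with a neighbour in the order of means, and the combination differed from vehicle by -0.086 (SE 0.062, adjusted p = 0.381), or -0.15 (adjusted p = 0.241) without combination replicate 2. H2AZ2 (ENSG00000105968.19, chr7:44826791-44848087, minus strand) had 163.1 and 168.6 CPM with vehicle, 156.4 and 148.5 with decitabine, 128.1 and 132.5 with talazoparib, and 124.7 and 129.7 with the combination. Vehicle lay above decitabine and decitabine above talazoparib with no overlap, while talazoparib and the combination overlapped. The share of all genes in such an order was not counted, and the decitabine change of -0.11 was not called (adjusted p = 0.603). H2AZ2 was the one gene of the 9 that talazoparib alone lowered, by -0.345 (SE 0.06, adjusted p = 0.00208), a call that was lost without vehicle replicate 2 (adjusted p = 0.0783). The combination changed it by -0.39 from vehicle (SE 0.06, adjusted p = 1.8e-04), which held whichever library was left out, and by -0.046 from talazoparib (SE 0.06, adjusted p = 0.814). Against decitabine the value was -0.28 (SE 0.06, adjusted p = 0.00773), and -0.30 (adjusted p = 0.0371) without combination replicate 2. That call was lost without combination replicate 1 (-0.25, adjusted p = 0.0769).

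In HUCCT1 both H2A.Z genes were lower with decitabine in each library, and the difference between them was not tested. H2AZ1 fell from 145 and 125 CPM to 101 and 110 CPM with no overlap, by -0.37 (SE 0.11, adjusted p = 0.0125). The call was lost without vehicle replicate 1 (-0.26, adjusted p = 0.17) or decitabine replicate 1 (-0.31, adjusted p = 0.122). H2AZ2 had 186.3 and 185.9 CPM with vehicle and 148.8 and 163.8 CPM with decitabine, also without overlap, and its change of -0.26 (SE 0.11) did not pass the test (adjusted p = 0.0595). With all 12 libraries in 1 fit it did (adjusted p = 0.0101). The effect of decitabine on H2AZ1 in HUCCT1 less that in EGI-1 was -0.24 (SE 0.12, adjusted p = 0.194) and for H2AZ2 -0.13 (SE 0.1, adjusted p = 0.462).

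MACROH2A1 and MACROH2A2 encode H2A variants with a large C-terminal macrodomain. MACROH2A1 (ENSG00000113648.16, chr5:135334381-135399914, minus strand) changed least of the 9 genes under the combination. Its level was 348 CPM in both vehicle libraries, 348 and 331 with decitabine, 329 and 341 with talazoparib, and 333 in both combination libraries. The libraries of all 4 groups thus lay within a narrow band, and the combination differed from vehicle by -0.072 (SE 0.054, adjusted p = 0.403), or -0.068 (adjusted p = 0.602) without combination replicate 2. In HUCCT1 it went from 353 and 366 CPM to 325 and 315 CPM without overlap, by -0.18 (SE 0.1, adjusted p = 0.201).

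MACROH2A2 (ENSG00000099284.15, chr10:70052544-70112282, plus strand) passed the test both under the EGI-1 combination and under HUCCT1 decitabine. H2AZ2, H1-10 and H2AX passed under the EGI-1 combination and, in HUCCT1, in some other fits but not in the main one. H1-10 and H2AX did so also in some fits with a library left out. Of the other fits that kept every library, 2 of 6 passed for H2AZ2, 2 of 6 for H1-10 and 1 of 6 for H2AX. In EGI-1 MACROH2A2 had 50.4 and 50 CPM with vehicle, 46.1 and 48.7 with decitabine, 45.4 and 45.5 with talazoparib, and 36.9 and 40.6 with the combination. The 4 groups lay in that order without overlap between neighbours, with 46.1 against 45.5 CPM at the closest, between decitabine and talazoparib. The share of all genes in such an order was not counted. Neither single agent passed against vehicle, with -0.077 for decitabine (adjusted p = 0.838) and -0.14 for talazoparib (adjusted p = 0.372). The combination differed from vehicle by -0.38 (SE 0.074, adjusted p = 0.00154), which held whichever library was left out, and from decitabine by -0.30 (SE 0.075, adjusted p = 0.0176). Without combination replicate 2 the second value was -0.37 (adjusted p = 0.0353), and the call against decitabine was lost without combination replicate 1 (-0.24, adjusted p = 0.183), vehicle replicate 1 (adjusted p = 0.0521) or vehicle replicate 2 (adjusted p = 0.0546). In HUCCT1 the level was far lower, 8.44 and 8.66 CPM with vehicle (256 and 262 counts) and 5.44 and 6.02 CPM with decitabine (174 and 178 counts). The HUCCT1 groups did not overlap and the change was -0.59 (SE 0.17, adjusted p = 0.00905), lost without decitabine replicate 1 (-0.52, adjusted p = 0.0803). Exons of MACROH2A2 share 986 bases with AIFM2 on the opposite strand, which had 1139 to 2011 counts per library. The use of strand in counting is not stated, so reads of both genes in that overlap cannot be told apart. AIFM2 had 44.3 and 43.6 CPM with vehicle and 46.6 and 42.7 CPM with the combination in EGI-1, and 61.3 and 62.8 CPM with vehicle and 62.8 and 67.2 CPM with decitabine in HUCCT1.

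H3-3A and H3-3B encode the same H3.3 protein, with coding sequences that were 78.6% identical and gave 0 differing residues over 136 codons. Both held near their vehicle level in EGI-1. H3-3A (ENSG00000163041.13, chr1:226061851-226072019, plus strand) had 169.9 and 171.9 CPM with vehicle, 155.9 and 181.9 with decitabine, 162.8 and 156.6 with talazoparib, and 150.2 and 160.7 with the combination. H3-3B (ENSG00000132475.10, chr17:75776434-75785893, minus strand) had 380 and 365 CPM with vehicle, 363 and 345 with decitabine, 336 and 354 with talazoparib, and 327 and 346 with the combination. The combination libraries lay below the vehicle libraries for both genes and overlapped with talazoparib. The differences from vehicle were -0.14 for H3-3A (SE 0.07, adjusted p = 0.171) and -0.15 for H3-3B (SE 0.057, adjusted p = 0.0701). Without combination replicate 2 they were -0.19 (adjusted p = 0.197) and -0.19 (adjusted p = 0.105). In a fit of the 4 libraries compared both passed, with adjusted p of 0.0431 and 0.0163. H3-3B also passed without decitabine replicate 1 (adjusted p = 0.0278) or decitabine replicate 2 (adjusted p = 0.0286).

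In HUCCT1 H3-3A went from 212.5 and 229.1 CPM to 175.8 and 206.2 CPM, by -0.22 (SE 0.11, adjusted p = 0.13). H3-3B fell from 348 and 361 CPM to 271 and 306 CPM, by -0.31 (SE 0.11, adjusted p = 0.0275). Neither gene's groups overlapped, and the H3-3B call was lost without vehicle replicate 1 (adjusted p = 0.0574), vehicle replicate 2 (adjusted p = 0.0942) or decitabine replicate 1 (adjusted p = 0.3). Of the 50-base windows of the H3-3A transcript, 72.7% also occurred in transcripts of other genes, among them the processed copy H3P6, which had 612 to 2019 counts per library. The value of H3-3A is therefore uncertain where the counting split such reads. The share was 8.3% for H3-3B and 0 for MACROH2A2 and H2AJ.

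H1-10 (ENSG00000184897.6, chr3:129314771-129316286, minus strand) encodes H1.10, a linker histone outside the clusters that binds between nucleosomes. Of the 9 genes it had the greatest fall under the EGI-1 combination, and the largest SE there. In EGI-1 it had 30.5 and 32.4 CPM with vehicle, 19.9 and 33.5 with decitabine, 23.6 and 20.3 with talazoparib, and 16.5 and 17.3 with the combination. Both combination libraries were below all others, while the decitabine libraries spanned from below the talazoparib range to above vehicle. The combination differed from vehicle by -0.91 (SE 0.23, adjusted p = 0.0389). The call was lost when either vehicle, either talazoparib or either combination library was left out, with values between -0.95 and -0.86 and adjusted p between 0.105 and 0.219, among them -0.94 (adjusted p = 0.2) without combination replicate 2. Talazoparib alone changed it by -0.52 (SE 0.23, adjusted p = 0.33). Without decitabine replicate 1 or 2 that difference passed the test, at -0.53 each (adjusted p = 0.000163 and 0.000226). Decitabine alone changed it by -0.23 (SE 0.22, adjusted p = 0.851), with 0.10 (adjusted p = 0.771) without decitabine replicate 1 and -0.655 (adjusted p = 0.00162) without decitabine replicate 2. Exons of H1-10 overlap the antisense gene H1-10-AS1, which had at most 22 counts in any library.

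**Figure D2:**
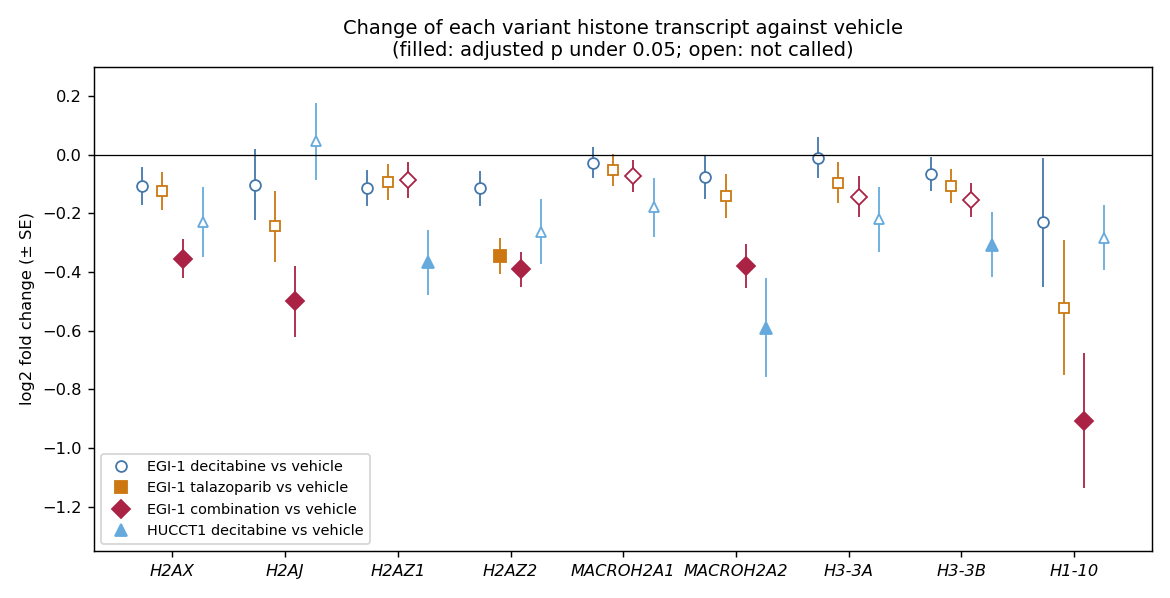
Log2 fold change against vehicle (y axis; error bars are SE) of the 9 variant histone genes for the 3 EGI-1 treatments and for HUCCT1 decitabine, 2 libraries a group; filled symbols have an adjusted p under 0.05. The 5 filled diamonds of the combination are H2AX, H2AJ, H2AZ2, MACROH2A2 and H1-10, the 3 filled triangles of HUCCT1 are H2AZ1, MACROH2A2 and H3-3B, and no decitabine circle of EGI-1 is filled.

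In HUCCT1, treated with 1 µM decitabine, 3 of the 9 genes fell, H2AZ1, H3-3B and MACROH2A2, and none rose, beside 13.9% of the 22479 genes tested that fell. The median over the 9 genes was -0.26, against 0.00198 over all genes. With the replicate number added to the fit, 8 of the 9 genes were called, beside 4648 of all genes called lower. The labels do not say that equal numbers mark a shared batch. In 7 genes, all but H2AX and H2AJ, both decitabine libraries lay below both vehicle libraries, which held for 30.6% of all genes tested. Without decitabine replicate 1, 0 of the 9 genes passed in edgeR. H1-10 went from 168.2 and 196.1 CPM to 141.8 and 159.7 CPM with no overlap, by -0.28 (SE 0.11, adjusted p = 0.0518), and passed without vehicle replicate 1 (-0.40, adjusted p = 0.0221). S phase markers summed to 2530 to 2570 CPM with vehicle and 1850 to 1880 CPM with decitabine, and G2/M markers to 3180 to 3190 and 2090 to 2260 CPM. The biliary markers summed to 14500 to 16300 CPM with vehicle and 8860 to 10200 CPM with decitabine, with 5 of 7 lower. The fibroblast list rose from 37 CPM to as much as 195 CPM, with COL1A1 and COL1A2 higher and LUM lower, and the endothelial list from between 4.1 and 5.47 CPM to between 24.9 and 26 CPM, with 3 of 3 higher. CD3E went from 0 and 1 counts to 17 and 23 counts. The part of these shifts in the histone results was not tested.

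Whether decitabine acted differently in HUCCT1 (1 µM) and EGI-1 (0.5 µM) was tested by interaction in a fit of all 12 libraries and 25096 genes. The difference was called for 1 of the 9 genes, MACROH2A2, beside 15.9% of all genes called in either direction. Its decitabine effect was lower in HUCCT1 than in EGI-1 by -0.50 (SE 0.14, adjusted p = 0.0201), with -0.077 (SE 0.073) in EGI-1 and -0.59 in HUCCT1 from the fits within each line. The call was lost without HUCCT1 decitabine replicate 1 (-0.43, adjusted p = 0.0835), EGI-1 vehicle replicate 1 (adjusted p = 0.06), EGI-1 vehicle replicate 2 (adjusted p = 0.0714) or EGI-1 decitabine replicate 2 (adjusted p = 0.0528). H2AZ1 passed without HUCCT1 vehicle replicate 2 (-0.35, adjusted p = 0.0442).

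With vehicle, 5 of the 9 genes differed between the lines, H1-10 and MACROH2A2 by far the most. H1-10 was higher in HUCCT1 than in EGI-1 by 2.53 on the log2 scale (SE 0.21, adjusted p = 6.8e-06), with 168.2 and 196.1 CPM against 30.5 and 32.4 CPM. MACROH2A2 was lower by -2.55 (SE 0.099, adjusted p = 3.3e-15), with 8.44 and 8.66 CPM against 50.4 and 50 CPM. H2AJ was higher by 0.50 (SE 0.12, adjusted p = 0.00181), H3-3A higher by 0.37 (SE 0.087, adjusted p = 0.00104) and H2AZ1 lower by -0.48 (SE 0.082, adjusted p = 3.8e-05). This made 3 genes higher and 2 lower, beside 28.5% and 27.3% of all genes tested. Vehicle libraries of both lines did not overlap for these 5 genes, and the share of all genes without such overlap was not counted. With upper-quartile factors the median of all genes moved from -0.00843 to -0.127, and the values for H1-10 and MACROH2A2 became 2.41 and -2.67.

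Levels can be set beside each other only per length, here as CPM per kilobase of the canonical transcript. In EGI-1 vehicle libraries H2AX led with a mean of 508 CPM per kb, followed by H2AZ1 with 218, MACROH2A1 with 181, H3-3A with 160 and H3-3B with 138. H2AZ2 followed with 54.8, H2AJ with 29.1, MACROH2A2 with 26 and H1-10 with 20.8 CPM per kb. By this length the order of the 9 genes was the same in all 4 EGI-1 groups. The order depends on the length used. Per kilobase of all annotated exons of a gene, H2AX kept 508 and H2AZ1 had 83 CPM per kb with vehicle in EGI-1, H3-3B 60.7, H3-3A 44.7, H2AZ2 23.7, H1-10 20.8 and MACROH2A1 20.4, so that MACROH2A1 stood seventh and H1-10 was no longer last. By that length H1-10 lay above MACROH2A1 with vehicle and below it with the 3 treatments. Per canonical transcript, H2AX again led in HUCCT1 vehicle libraries with 562, H3-3A came second with 206 and H1-10 stood sixth with 120 CPM per kb, while MACROH2A2 was last with 4.43. Between the members of each pair H2AZ1 exceeded H2AZ2 and MACROH2A1 exceeded MACROH2A2 in every group.

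Against the replication-coupled H3 genes, H3-3A and H3-3B together gained in share under the combination, since those genes fell further. Shares were computed only for H3-3A with H3-3B and for H2AX. H3-3A and H3-3B gave 20.3 and 22.1% of H3.3 and canonical H3 counts with vehicle in EGI-1, and 21.9 and 20.9% with decitabine. The share was 26.7 and 27.5% with talazoparib, and 39.2 and 38.0% with the combination. Vehicle and decitabine overlapped, talazoparib lay above both and the combination above talazoparib. The summed CPM of 13 canonical H3 genes was 2160 and 1890 with vehicle and 739 and 827 with the combination. In HUCCT1 the share was 40.0 and 43.5% with vehicle and 49.8 and 50.5% with decitabine, without overlap.

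The same was seen for H2AX against the canonical H2A genes. Its share of H2AX and canonical H2A counts was 26.9 and 30.0% with vehicle, 25.9 and 28.2% with decitabine, 35.8 and 31.7% with talazoparib, and 44.5 and 41.9% with the combination, although its own level fell. Vehicle and decitabine again overlapped, with talazoparib above both and the combination above talazoparib. The summed CPM of 14 canonical H2A genes was 2180 and 1900 with vehicle and 796 and 877 with the combination. In HUCCT1 the share of H2AX was 43.4 and 45.8% with vehicle and 49.9 and 52.1% with decitabine. No test was run on shares. An exact permutation of 2 against 2 libraries cannot give a p under 0.333. Shares of counts are not shares of molecules, and a share per length depends on the length used. Per kilobase of all annotated exons in EGI-1, the H3.3 share was 2.81% with vehicle and 6.23% with the combination. The H2AX share was 12% and 20.8%. All annotated exons of H3-3A and H3-3B hold 3826 and 6134 bases, against 1070 and 2705 bases in the canonical transcripts. For H2AX both lengths are 1592 bases. Shares per canonical transcript were not computed.

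**Figure D3:**
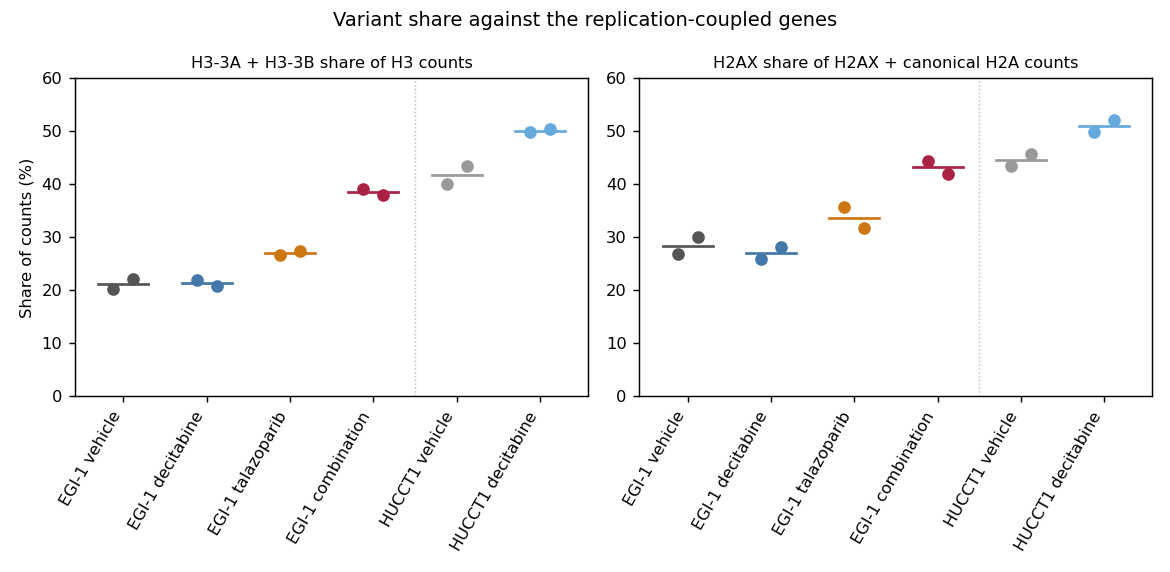
Share of counts (%, y axis from 0) held by H3-3A and H3-3B among these and the canonical H3 genes (left) and by H2AX among H2AX and canonical H2A genes (right) in each library. Points are libraries and horizontal lines are means of 2. In EGI-1 both shares are highest with the combination, at 38.0 to 39.2% and 41.9 to 44.5%, and in HUCCT1 both are higher with decitabine than with vehicle.

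Under the combination the canonical histone lists had lower medians than the replacement genes. With decitabine alone in EGI-1 they did not, at -0.10 for H3, 0.005 for H2A and -0.026 for H1 against -0.102 for the replacement genes. Under the combination 10 of 11 canonical H3 genes tested fell, with a list median of -1.315, led by H3C12 (-2.002, adjusted p = 3.0e-11). Of the canonical H2A genes 10 of 12 fell, with a median of -1.29, led by H2AC16 (-1.64), and of the clustered H1 genes 4 of 5, with a median of -1.31, led by H1-3 (-1.72). None of the 3 lists had a gene that rose. In HUCCT1 6 of 12 canonical H3 genes fell and H3C8 rose, from 1 and 4 counts to 467 and 637 counts (adjusted p = 2.4e-15), against 8899 to 11925 counts in EGI-1 vehicle libraries. H3C3 in turn had at most 3 counts in any EGI-1 library and 2740 to 3441 counts in HUCCT1. Of the canonical H2A genes 9 of 12 fell in HUCCT1, with a median of -0.62, and of the clustered H1 genes 3 of 6 fell and 1, H1-6, rose. Without EGI-1 combination replicate 2, 9 of 12 canonical H3, 10 of 12 canonical H2A and 4 of 5 clustered H1 genes fell, a check added after the data were seen.

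Of a further list of other histone genes, 5 of the 14 in the table were tested in EGI-1 and 6 in HUCCT1. Under the combination H4C16 fell by 1.025 on the log2 scale (adjusted p = 2.4e-07), and CENPA, the H3 variant of centromeres, differed by 0.015 (adjusted p = 0.923). In HUCCT1 H2AB1, a short H2A variant of the testis, had 2 and 1 counts with vehicle and 215 and 252 counts with decitabine (adjusted p = 2.8e-13). H3-4, the testis H3 variant, rose from 32 and 30 counts to 155 and 169 counts (log2 fold change 2.35, SE 0.25, adjusted p = 5.1e-08). The testis linker histone H1-6, counted above with the clustered H1 genes, went from 11 and 3 counts to 103 and 118 counts (3.93, adjusted p = 1.6e-08). H2AB1 had 0 counts in all 8 EGI-1 libraries, and H3-4 had 7 to 18.

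Under the EGI-1 combination the median was -0.073 for the genes of H3.3 deposition, -0.07 for the replication-coupled chaperones and -0.09 for the genes of H2A.Z exchange, and in HUCCT1 it was 0.015, -0.45 and -0.12. Of the H3.3 deposition genes 1 of 6 fell under the combination, UBN2 of the HIRA complex (-0.29, adjusted p = 0.0295), and in HUCCT1 ATRX (-0.76, adjusted p = 1.8e-05) and CABIN1 (-0.40, adjusted p = 0.00691) fell. DAXX, the partner of ATRX, had at most 8 counts in any library and was not tested. Among 10 chaperones of replication-coupled deposition 4 fell under the combination, led by MMS22L (-0.38), NASP (-0.345) and MCM2 (-0.33), and in HUCCT1 7 fell and CDAN1 rose (0.39, adjusted p = 0.021). Of 15 genes of H2A.Z exchange 3 fell, the acetyltransferase KAT5 (-0.51, adjusted p = 0.00233), the H2A.Z chaperone ANP32E (-0.40) and INO80 (-0.32), and ZNHIT1 of the SRCAP complex rose (0.27, adjusted p = 0.0473). In HUCCT1 4 of the 15 fell, again with KAT5 (-0.49, adjusted p = 0.0027). The H2A.Z readers PWWP2A, PWWP2B and BRD2 had values of -0.18 (adjusted p = 0.149), 0.16 (adjusted p = 0.43) and -1.17 (SE 1.9, adjusted p = 0.743) under the combination, and PWWP2B rose in HUCCT1 (0.34, adjusted p = 0.0406).

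Genes that act on H2AX were the FACT subunits SSRP1 (-0.33, adjusted p = 2.0e-04) and SUPT16H (-0.205, adjusted p = 0.026) and the H2AX kinase BAZ1B (-0.26, adjusted p = 0.00566), which fell under the combination, 3 of the 13 tested. In HUCCT1 MDC1 (-1.66, SE 0.5), ATR (-0.54, SE 0.12) and RNF168 (-0.52, SE 0.11) fell, 3 of 12. The value of MDC1 is the least certain of these, and under the EGI-1 combination its SE was 1.4. Among 7 partners of macroH2A, the remodeller HELLS fell in both, by -0.43 under the combination (adjusted p = 3.9e-04) and -0.82 in HUCCT1 (adjusted p = 6.3e-06). QKI, a splicing factor known to favour one splice form of MACROH2A1, rose in HUCCT1 (0.99, adjusted p = 9.0e-08), as did PARP1, a binding partner of that form (0.53, adjusted p = 3.1e-04). Of 6 chaperones and competitors of linker histones 4 fell under the combination, with HMGB2 at -0.59 and NUCKS1 at -0.57, and 4 fell in HUCCT1, with NUCKS1 at -1.41 and HMGB2 at -0.80. Without combination replicate 2, UBN2 did not pass and 2 of 10 replication-coupled chaperones, 2 of 13 genes that act on H2AX, 1 of 7 macroH2A partners and 4 of 6 linker histone chaperones fell, while the H2A.Z exchange list again had 3 lower and 1 higher.

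Proliferation genes moved beside these lists. Under the combination 10 of 14 S phase genes fell, led by MCM6 (-0.86, adjusted p = 2.6e-08) and MCM5 (-0.80), and 4 of 12 G2/M genes, led by MKI67 (-0.47). In HUCCT1 10 of 14 S phase genes and 11 of 12 G2/M genes fell, led by MCM6 (-0.95) and BUB1 (-0.99). Without combination replicate 2 the EGI-1 counts were 9 of 14 and 3 of 12. Fewer cells in S phase and less RNA per cell cannot be told apart in such bulk libraries, and the part of either in the histone values was not tested.

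The 5 genes most like H1-10 over the 8 EGI-1 libraries, by Pearson's r of log2 CPM among 8542 genes, were PRR15 (0.989), MCRIP1 (0.989), MXD3 (0.983), SERINC5 (0.983) and DALRD3 (0.983). For MACROH2A1, which changed least under the combination, they were NTPCR (0.982), CNOT2 (0.981), USF3 (0.977), ENSG00000280385 (0.973) and NDC80 (0.972). These values describe 8 libraries that share their scaling and carry no test.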

How the data were processed

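RNA of 12 libraries from 2 cholangiocarcinoma cell lines was sequenced. The authors deposited counts, whole numbers per gene without normalization, for 60651 Ensembl genes, of which 60481 matched a symbol. The submitters' processing notes name fastp, Trim Galore, HISAT2, featureCounts and GRCh38, while the methods of the study name STAR and RSEM. The table has the header that featureCounts writes. Use of the strand and treatment of reads that match several genes are not given in the sources used here. RNA was isolated with Trizol per the labels, and the methods name a kit for total RNA with ribosomal RNA depletion, so that transcripts lacking a poly(A) tail can be captured. The methods describe EGI-1 alone, so the HUCCT1 conditions come from the labels.

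Counts were tested with edgeR 4.0.16 (R 4.3.3) after filterByExpr by group and TMM scaling, using its robust quasi-likelihood test, and p-values were adjusted over all genes tested by the Benjamini-Hochberg method. The 8 EGI-1 libraries (22406 genes), the 4 HUCCT1 libraries (22479 genes) and all 12 (25096 genes, for comparisons between lines) were fitted apart. An adjusted p under 0.05 was a call. Printed CPM use TMM factors over all 12 libraries, so they may differ slightly from the fold changes. Between replicates the chi-square per gene against counting noise was 2.56 to 11.1. Libraries of the same RNA can also differ by more than counting noise, so this value cannot show whether replicates came from separate cultures. Precision was limited by 2 libraries a group, and the scripts were tested on simulated data. DESeq2 1.42.0, other scaling factors, no filter, other library sets and leaving out each library were tried as alternatives.

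Gene positions and transcripts come from GENCODE 44 on GRCh38, promoters from RefSeq. Windows of 50 bases were compared between transcripts. The members and gene lists (histone chaperones and exchange factors, readers, H2AX and macroH2A partners, canonical histones, S phase, G2/M and cell type markers) were chosen with earlier results of these data known. All 9 members are named, and from each list at most 4 genes with an adjusted p under 0.05 and the largest absolute change in the EGI-1 combination, and at most 3 by the same rule in HUCCT1. The H2A.Z readers are given in full as a short list, and AIFM2, H3P6 and H1-10-AS1 as genes that share sequence with a member. CENPA, H3C3 and DAXX were chosen after their values were seen. Some genes that this rule names are not reported here.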

Additional observations from a re-analysis of the deposited data

Results flagged for a closer look

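The effect of decitabine on MACROH2A2 differed between the lines by a test of the difference itself. On the log2 scale it was lower in HUCCT1 than in EGI-1 by -0.496 (SE 0.14, adjusted p = 0.0201 in edgeR's quasi-likelihood test). By the same test 15.9% of all 25096 genes were called in either direction. With 1 library left out the difference ranged from -0.573 to -0.428, and the call did not hold in every such fit. In HUCCT1 both decitabine libraries, at 5.44 and 6.02 CPM, were below both vehicle libraries, at 8.44 and 8.66 CPM. In EGI-1 the decitabine libraries had 46.1 and 48.7 CPM against 50.4 and 50 CPM. That change of -0.077 (SE 0.073) was not called by the same kind of test within EGI-1 (adjusted p = 0.838). Dose, medium, line and the tag in the library names changed together and cannot be told apart.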

How the results depend on the processing

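Under DESeq2, RLE factors, upper-quartile factors, no filter, the replicate block or only the 4 libraries compared, the count of the 9 genes called lower under the EGI-1 combination was 5 to 7, against 5. Without a filter on low counts the counts became 2 for talazoparib, 5 for the combination against decitabine and 2 for the combination against talazoparib, and with only the 4 libraries compared 2, 0 and 2. With 1 library left out, the counts ranged from 3 to 6 (combination against vehicle), 0 to 2 (talazoparib), 0 to 1 (decitabine in EGI-1), 0 to 6 (combination against decitabine), 0 to 2 (combination against talazoparib), 0 to 0 (departure from the sum), 0 to 4 (HUCCT1), 0 to 2 (difference between lines) and 5 to 6 (vehicle levels between lines). A group left with 1 library was assumed to vary like the others. The libraries share replicate numbers, but same-numbered EGI-1 libraries did not all deviate together (correlations between -0.534 and 0.352 over the 6 pairs of groups). Decitabine gave -0.534 with talazoparib and -0.42 with the combination, and talazoparib gave 0.352 with the combination. With 2 libraries a group the sign turns when the numbers of a group are swapped. The correlations therefore cannot show whether libraries under different numbers share a batch. In HUCCT1, with 1 pair of groups, the correlation was 0.536, and the replicate block gave 8 calls against 3. With that block 4648 of the 22479 genes tested were called lower, against 3121 without it. In EGI-1 the replicate block changed 1 call, H2AX against decitabine (adjusted p = 0.0644 by title number and 0.0549 by library name), with 2 genes called against 3. Signs that turned were those of small values that were not called. With upper-quartile factors H2AZ1 was -0.012 for the combination against talazoparib and MACROH2A1 -0.07 for the vehicle level. With 1 library left out, the ranges were for decitabine in EGI-1 H3-3A -0.129 to 0.099, H1-10 -0.655 to 0.102, H2AJ -0.247 to 0.031 and MACROH2A1 -0.061 to 0.004. For the combination against decitabine H2AZ1 ranged from -0.037 to 0.089. For the combination against talazoparib H2AZ1 ranged from -0.055 to 0.072, H3-3A from -0.093 to 0.002 and MACROH2A1 from -0.039 to 0.005. In HUCCT1 H2AJ ranged from -0.098 to 0.175, and for the difference between lines H2AX from -0.299 to 0.057 and H1-10 from -0.375 to 0.378. Per kilobase of all annotated exons the H3.3 share was 2.81, 2.83, 3.8 and 6.23% in EGI-1 vehicle, decitabine, talazoparib and combination. It was 7.36 and 10.0% in HUCCT1 vehicle and decitabine. For H3-3A and H3-3B this length exceeds that of the canonical transcripts, by which shares were not computed. The H2AX share was 12, 11.3, 14.9 and 20.8%, and 21.8 and 26.6%. The order vehicle, talazoparib, combination was kept. Causes of these shifts were not tested. Each of the 9 genes had at least 174 counts in every library, and the 2 libraries a group limit the precision.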
